A study of Arabidopsis thaliana with 28 samples.

Results

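The 133 genes described here are those of the chloroplast genome, taken as every reference gene whose locus ID has the chloroplast prefix ATCG, out of 33602 reference genes in each table. They were measured in whole 7-day-old seedlings of Arabidopsis thaliana, with 1 library for each of 28 conditions. The conditions combine the pif7 mutant (its allele is not named) or the wild type Col-0, an oscillating or a constant temperature, and 7 times of day. In the oscillating regime seedlings were at 27 °C from ZT4 to ZT12 and at 17 °C otherwise, and in the constant regime they stayed at 17 °C, where ZT counts hours from lights on. All seedlings grew in long days of 16 h light and 8 h dark. Sampling was at lights on (ZT0) and at ZT4, ZT5, ZT8, ZT12, ZT16 and ZT20. The labels write 27 °C beside each oscillating library, whatever its time.

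By their names the genes were grouped as 15 for photosystem II, 5 for photosystem I, 6 for the cytochrome b6f complex, 6 for ATP synthase, 12 for the NDH complex, RBCL for the large subunit of Rubisco, 4 for RNA polymerase, 26 for ribosomal proteins, 37 for tRNAs and 8 for rRNAs. The remaining genes are 2 for photosystem I assembly (YCF3 and YCF4) and 11 others. Because the chloroplast genome holds a large inverted repeat, 18 pairs of rows are copies of the same gene (such as RRN16S.1 and RRN16S.2), so the 133 rows stand for 115 distinct genes, and copies are not independent measurements. Chloroplast genes are mostly read as long transcripts of several genes that are then cut and trimmed. They are transcribed by a bacterial-type polymerase whose core is encoded in the chloroplast (RPOA, RPOB, RPOC1 and RPOC2) and whose sigma factors are encoded in the nucleus, and by phage-type polymerases encoded in the nucleus. RNA-binding proteins and nucleases from the nucleus set the ends and the lifetime of these transcripts.

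Sequencing depth ran from 1.32 to 2.82 gigabases per library. Chloroplast genes made up 3.28% to 5.80% of the summed TPM (a relative abundance scaled for transcript length) of the reference genes. Their summed TPM was highest in the Col-0 constant libraries of ZT12 (60005) and ZT20 (55943), against 33336 to 49871 in the other 26 libraries. Counts are given with and without these libraries where they move. PIF7 itself fell in the mutant in 14 of 14 pairs (log2 difference -1.54 ± 0.10, SE, adjusted p = 2.31e-08). The leaf markers RBCS1A, LHCB1.3 and CA1 summed to 10194 to 16402 TPM, and the root markers COBL9, EXPA7, PYK10 and RHD6 to 1287 to 2418 TPM, with none of the 7 at 0 in all libraries. In whole seedlings, fewer green cells and less chloroplast RNA per cell cannot be told apart. The labels do not state whether RNA was selected for poly(A) tails or depleted of rRNA. With no replicates, errors and p-values rest on how steady a difference was across times and genotypes, and not on the spread between pools of seedlings.

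Levels per transcript length differed by orders of magnitude between chloroplast genes. The gene with the highest median over the 28 libraries was ATPE, the epsilon subunit of ATP synthase, at 5221 TPM (lowest 3730, highest 7238). RPL32, a protein of the large ribosomal subunit, followed with 3423 TPM (2275 to 4999.6), and ATPB, the beta subunit of ATP synthase in the same transcript as ATPE, with 3327 TPM (2578 to 4880). PSBM, a small photosystem II subunit, stood at 1480 TPM. PSBA, which encodes the D1 protein at the heart of photosystem II, stood at 376 TPM (283 to 483), and RBCL at 177 TPM (93.3 to 368). The rRNA genes RRN16S.1 and RRN23S.1 had medians of 1315 and 1102 TPM. By mean, the lowest were tRNA rows such as TRNN.1 (0.80 TPM) and TRNI.1 (0.85 TPM). TRNM and TRND were listed at 0 in 14 and 12 libraries, with means of 1.03 and 14.5 TPM. Summed by function, ribosomal protein genes came first (13905 to 27784 TPM), then ATP synthase (6498 to 12366) and rRNA (3885 to 8337), while the 6 genes of the cytochrome b6f complex summed to 102 to 251 TPM. These are ranks of the listed TPM. With poly(A) selection or rRNA depletion not stated, they cannot be read as ranks of RNA amount in the seedlings, least of all for rRNA.

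**Figure D1:**
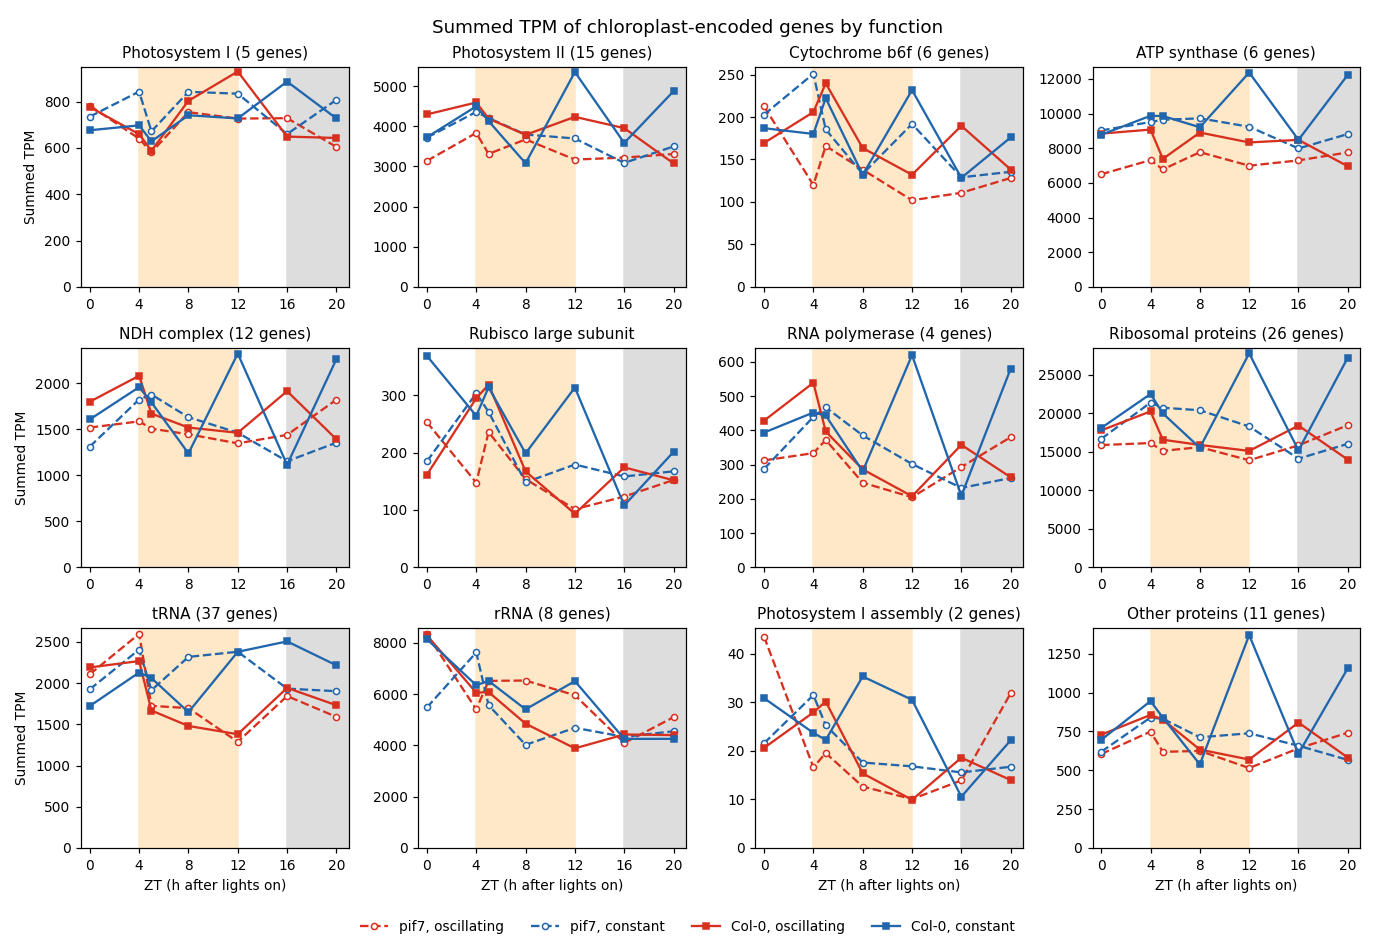
Summed TPM (y axis, from 0) of the chloroplast genes of each function against ZT in hours (x axis), with 1 point per library; dashed lines and open circles are pif7, solid lines and squares Col-0, red oscillating and blue constant, with the warm window in orange and the dark in grey. Ribosomal protein genes reached 27784 TPM in the Col-0 constant library of ZT12, the highest of all 28 libraries.

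Some TPM values of these rows need care. Coverage (mean read depth per base) is also given. Within a library, the ratio of TPM to coverage should be the same for all genes with 1 transcript. It departed from the library's median by over 10% in at least 1 library for 53 of the 133 genes and in at least 14 libraries for 15, among them RPS2, MATK, TRNS.3, TRNQ, TRNF, TRNT.1, NDHH, PSAA and CEMA. For the genes named below as passing the test, the difference on coverage is given where it moved by over 1.5 times or lost the call.

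The comparison of oscillating with constant libraries asks how a warm day changes the transcripts. At ZT12, after 8 h at 27 °C, 31 of the 133 chloroplast genes fell and 1 rose, which is 24.1% of them, against 16.2% of all 21031 genes tested (9.13% higher, 7.05% lower). The median log2 difference over the 133 was -0.62, against 0.01 over all genes tested, and 112 of the 133 lay below 0. The fall spanned photosynthesis, translation and transcription genes. The median was -0.43 in pif7, with 107 of 133 below 0, and -0.81 in Col-0, with 111 below 0. Part of this rests on the Col-0 constant library of ZT12, the one with the highest chloroplast sum: without it the median was -0.43 and 5 genes passed, of which 3 (TRNG.1, TRNS.3 and RPL33) were among the 32, although none of the 32 turned its sign. Leaving that library out leaves only the pif7 pair at ZT12, so the ZT12 differences given without it are those of pif7. The ZT12 calls in the next paragraphs are lost in that setting, where fewer pairs remain, unless said otherwise. Scaled so that the typical chloroplast gene stays level, 7 genes fell and 9 rose at ZT12, with a median of -0.01 over the 133. Leaf markers at ZT12 summed to 11296 TPM in the oscillating and 14024 TPM in the constant pif7 library, and to 12329 TPM in the oscillating and 16313 TPM in the constant Col-0 library. Root markers summed to 1447 TPM in the oscillating and 1724 TPM in the constant pif7 library, and to 1692 TPM in the oscillating and 1287 TPM in the constant Col-0 library. PYK10 made up most of these sums (1684 and 1278 TPM in the Col-0 pair). In the Col-0 pair EXPA7 was also higher under oscillation (5.17 against 4.63 TPM). COBL9 (1.15 against 2.76 TPM) and RHD6 (0.92 against 1.75 TPM) were lower. Over both genotypes the 4 root markers had a median log2 difference of -0.44, and 1 fell. The part of either list in the result was not tested.

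**Figure D2:**
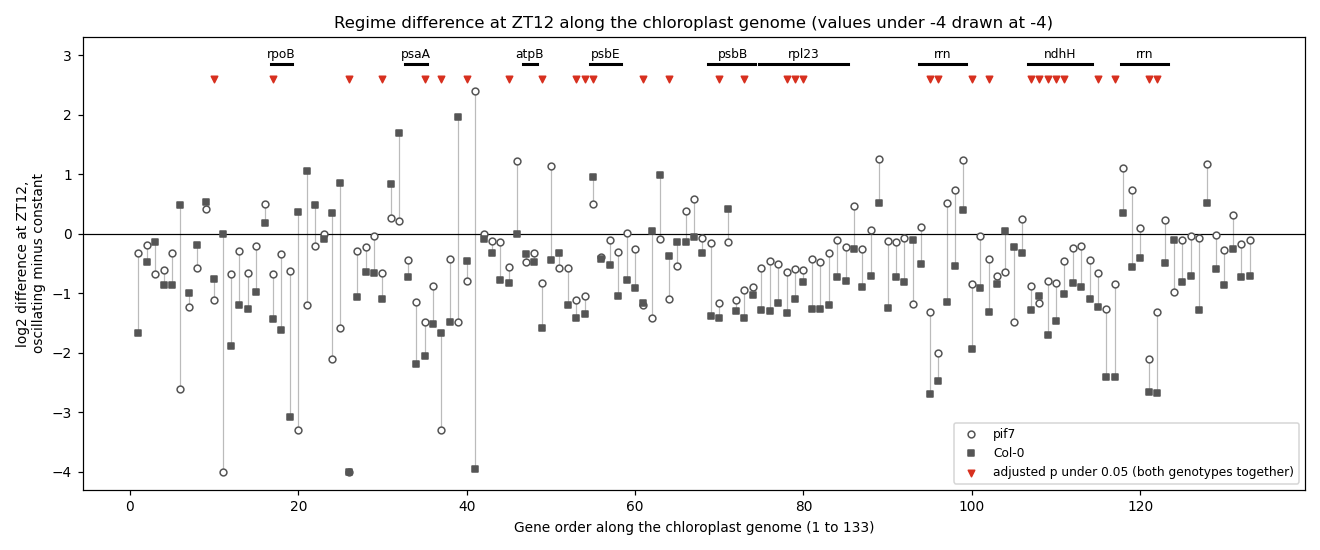
Log2 difference at ZT12, oscillating minus constant (y axis), for the 133 chloroplast genes in their order along the genome (x axis); open circles are pif7, squares Col-0, each joined by a line, red triangles mark the 32 genes that passed the test over both genotypes, and black bars mark transcription units. Of the 133 genes, 95 were lower in both genotypes and 9 higher in both.

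Among the protein genes that passed at ZT12, the largest difference was that of PSAA. PSAA and PSAB encode the reaction centre proteins that bind the primary chlorophylls and lie in one transcript. At ZT12 PSAA had 14.6 TPM in pif7 and 18.3 TPM in Col-0 in the oscillating regime, against 42.3 TPM in pif7 and 87.9 TPM in Col-0 in the constant regime. It fell by 1.77 ± 0.48 (log2, SE, adjusted p = 0.0306), and on coverage the difference was -1.69 with an adjusted p of 0.0559. Without the Col-0 constant library it was -1.49 (adjusted p = 0.246). PSAB had 17.6 TPM in pif7 and 16.5 TPM in Col-0 against 39.5 TPM in pif7 and 87.2 TPM in Col-0, a difference of -1.66 ± 0.52 that just missed the threshold (adjusted p = 0.0503). PSAC, which carries iron-sulphur clusters on the stromal side, fell by 1.1 ± 0.24 (adjusted p = 0.0112), with -1.16 and an adjusted p of 0.0804 without that library. The small subunit PSAJ went the other way in Col-0 alone, with 666 TPM in pif7 and 856 TPM in Col-0 in the oscillating regime against 699 TPM in pif7 and 480 TPM in Col-0 in the constant regime, and did not pass (0.45 ± 0.30, adjusted p = 0.338). Both oscillating values of PSAA, PSAB and PSAC lay below both constant values, while those of PSAJ overlapped.

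RBCL, the large subunit of the enzyme that fixes carbon dioxide, had 101 TPM in pif7 and 93.3 TPM in Col-0 at ZT12 in the oscillating regime, against 179 TPM in pif7 and 313 TPM in Col-0 in the constant regime. It fell by 1.21 ± 0.34 (adjusted p = 0.0339), with -0.84 and an adjusted p of 0.343 without the Col-0 constant library. In the cytochrome b6f complex, which passes electrons between the photosystems, PETA (cytochrome f) fell by 1.2 ± 0.22 and PETB (cytochrome b6) by 1.19 ± 0.33 (adjusted p = 0.00523 and 0.0329), and all 6 genes lay below 0. PETA without the Col-0 constant library was at -1.05, and PETB was at -0.95 (adjusted p = 0.0835 and 0.276). Of the 15 photosystem II genes, PSBT (-1.28) and PSBZ (-0.88) fell, PSBJ rose and 12 lay below 0. PSBA had 296 TPM in pif7 and 293 TPM in Col-0, against 334 TPM in pif7 and 453 TPM in Col-0, and did not pass (-0.33 ± 0.20, adjusted p = 0.283, 95% interval -0.77 to 0.10). The reaction centre and antenna genes PSBD, PSBC and PSBB did not pass either, at -0.68, -0.43 and -0.77. Of the 6 ATP synthase genes none passed, and all 6 lay below 0 (median -0.67), with ATPA at -1.28 and ATPB at -0.41.

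PSBJ, a small photosystem II subunit in the psbE transcript, was the 1 chloroplast gene that rose at ZT12. It had 228 TPM in pif7 and 273 TPM in Col-0 in the oscillating regime, against 158 TPM in pif7 and 157 TPM in Col-0 in the constant regime (0.73 ± 0.17, adjusted p = 0.0168; 0.50 and 0.247 without the Col-0 constant library). The other members of its transcript, PSBE, PSBF and PSBL, had differences of -0.68, -0.32 and -0.42 and did not pass. Averaged over ZT5, ZT8 and ZT12, PSBJ was higher in 6 of 6 pairs (0.48 ± 0.12, adjusted p = 0.0116), and it passed there without the Col-0 constant library of ZT12 (0.39, adjusted p = 0.0476).

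Of the 12 genes for the NDH complex, which returns electrons from photosystem I to the plastoquinone pool, NDHE (-1.25), NDHG (-1.15), NDHD (-1.08) and NDHI (-0.73) fell at ZT12 and all 12 lay below 0. These 4 lie with PSAC in the transcript that begins at NDHH, where 5 of 8 genes fell. Along that transcript, the differences were -0.76 at RPS15, a ribosomal protein gene, -0.55 at NDHH, -0.53 at NDHA, -0.73 at NDHI, -1.15 at NDHG, -1.25 at NDHE, -1.1 at PSAC and -1.08 at NDHD. RPS15, NDHH and NDHA did not pass. NDHE and NDHD were at -0.79 and -0.88 without the Col-0 constant library (adjusted p = 0.182 and 0.113). NDHC, NDHK and NDHJ of the ndhC transcript had a median of -0.22, with none passing.

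In the large ribosomal transcript that starts at RPL23, all 11 genes lay below 0 at ZT12 (median -0.85) and 3 of them fell, among them RPL14 and RPL16. RPL16 had 1426 TPM in pif7 and 1650 TPM in Col-0 in the oscillating regime, against 2137 TPM in pif7 and 3237 TPM in Col-0 in the constant regime (-0.71 ± 0.20, adjusted p = 0.0376; -0.60 and 0.281 without the Col-0 constant library). RPOA, the polymerase subunit at the end of this transcript, had a difference of -0.92 ± 0.29 (adjusted p = 0.0521). In the rpoB transcript RPOC2 fell by 1.06 ± 0.32 (adjusted p = 0.0447; 0.0832 on coverage), and RPOB and RPOC1 did not pass at -1.85 and -0.97. Not every transcript showed this. The 3 genes of the clpP transcript (CLPP1, a protease subunit, RPL20 and RPS12A) had a median of 0.13, and ACCD, a subunit of the enzyme that starts fatty acid synthesis, stood at 0.34 ± 0.41. By textbook promoter type, the 21 genes grouped as read mainly by the bacterial-type polymerase had a median of -0.68, with 5 lower and 1 higher, and the 4 grouped as read by the phage-type polymerase had a median of -1.01, with 1 lower.

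Among calls at ZT12 that passed on both TPM and coverage, the largest differences on coverage were those of TRNA.1, TRNA.2, TRNI.2 and TRNI.3. These are copies of tRNA genes with an intron. Of 8 rows with an intron 7 fell at ZT12, and the median of the 8 was -1.46. That median leans on these copies, which lay at -2.38 to -1.99 and are not independent. TRNG.1, TRNV.1 and TRNL.1 lay at -0.93, -0.70 and -0.62. Of the 29 tRNA rows with a single exon 5 fell, with a median of -0.65. The 7 rows are TRNI.2 and TRNI.3, TRNA.1 and TRNA.2 (both pairs in the 2 copies of the rRNA operon), TRNG.1, TRNV.1 and TRNL.1, and the eighth is TRNK (-0.41, adjusted p = 0.32), whose intron holds the MATK gene. The mature tRNAs that these rows encode are shown here from the RefSeq TAIR10.1 chloroplast genome, with the exons joined 5′ to 3′ and the anticodon in capitals, read as DNA. The reference gene coordinates match those in the tables for 124 of the 133 genes, these 5 included.
TRNI.2 (tRNA for isoleucine, Pt:102801-103601, plus strand): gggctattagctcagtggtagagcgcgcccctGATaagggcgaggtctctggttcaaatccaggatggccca
TRNA.1 (alanine, Pt:103665-104538, plus strand): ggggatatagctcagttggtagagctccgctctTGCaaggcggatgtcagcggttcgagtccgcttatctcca
TRNV.1 (valine, Pt:51199-51871, minus strand): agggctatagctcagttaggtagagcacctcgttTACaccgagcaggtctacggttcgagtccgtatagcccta
TRNG.1 (glycine, Pt:8646-9431, plus strand): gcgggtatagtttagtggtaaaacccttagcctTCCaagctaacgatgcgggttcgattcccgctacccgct
TRNL.1 (leucine, Pt:46894-47490, plus strand): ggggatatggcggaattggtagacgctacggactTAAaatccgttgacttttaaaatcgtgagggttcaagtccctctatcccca

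The mature tRNAs are 72 to 85 bases, whereas the genes span 597 to 874 bases, so most of each gene is intron. Which part of a row the reads came from is not given. TRNA.1 had 4.34 TPM in pif7 and 5.41 TPM in Col-0 at ZT12 in the oscillating regime, against 20.3 TPM in pif7 and 38.6 TPM in Col-0 in the constant regime. It fell by 2.24 ± 0.45 (adjusted p = 0.00758). TRNI.2 had 3.83 TPM in pif7 and 2.08 TPM in Col-0, against 10.9 TPM in pif7 and 20.8 TPM in Col-0 (-2.0 ± 0.48, adjusted p = 0.0171). TRNA.1 and TRNI.2 were at -2.01 and -1.32 without the Col-0 constant library (adjusted p = 0.0975 and 0.256), whereas TRNG.1 passed there (-1.11, adjusted p = 0.0197). TRNG.1 fell by 0.93, TRNV.1 by 0.70 and TRNL.1 by 0.62. The fall of TRNA.1, TRNA.2, TRNI.2 and TRNI.3 was also past the threshold when the typical chloroplast gene was held level (-1.77 to -1.41), whereas TRNG.1, TRNV.1 and TRNL.1 were not (-0.29, -0.01 and 0.07).

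The rRNA genes of the same operon did not follow their tRNAs. TRNI.2 and TRNA.1 lie in the spacer between RRN16S.1 and RRN23S.1, which encode the main rRNAs of the small and the large ribosomal subunit. At ZT12 RRN16S.1 had 1274 TPM in pif7 and 955 TPM in Col-0 in the oscillating regime, against 1165 TPM in pif7 and 1518 TPM in Col-0 in the constant regime (-0.20 ± 0.24, adjusted p = 0.613). RRN23S.1 had 1393 TPM in pif7 and 635 TPM in Col-0, against 958 TPM in pif7 and 1568 TPM in Col-0 (-0.31 ± 0.33, adjusted p = 0.559). Both genes were higher in the oscillating regime in pif7 and lower in Col-0. None of the 8 rRNA rows passed at ZT12, with 6 of the 12 rows of the operon being rRNA rows that lay between -0.31 and 0.10 and RRN5S.1 and RRN5S.2 at 0.82 and 0.72.

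Among the single-exon tRNA rows, TRNR.2 (-1.39), TRNR.3 (-1.63) and TRNW (-1.18) fell on TPM and on coverage. TRNT.1 fell by 6.16 on TPM and 1.52 on coverage, and TRNS.3 by 2.49 on TPM and 0.81 on coverage, where it did not pass (adjusted p = 0.136). The TPM differences of these 2 rows are therefore not used as sizes.

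**Figure D3:**
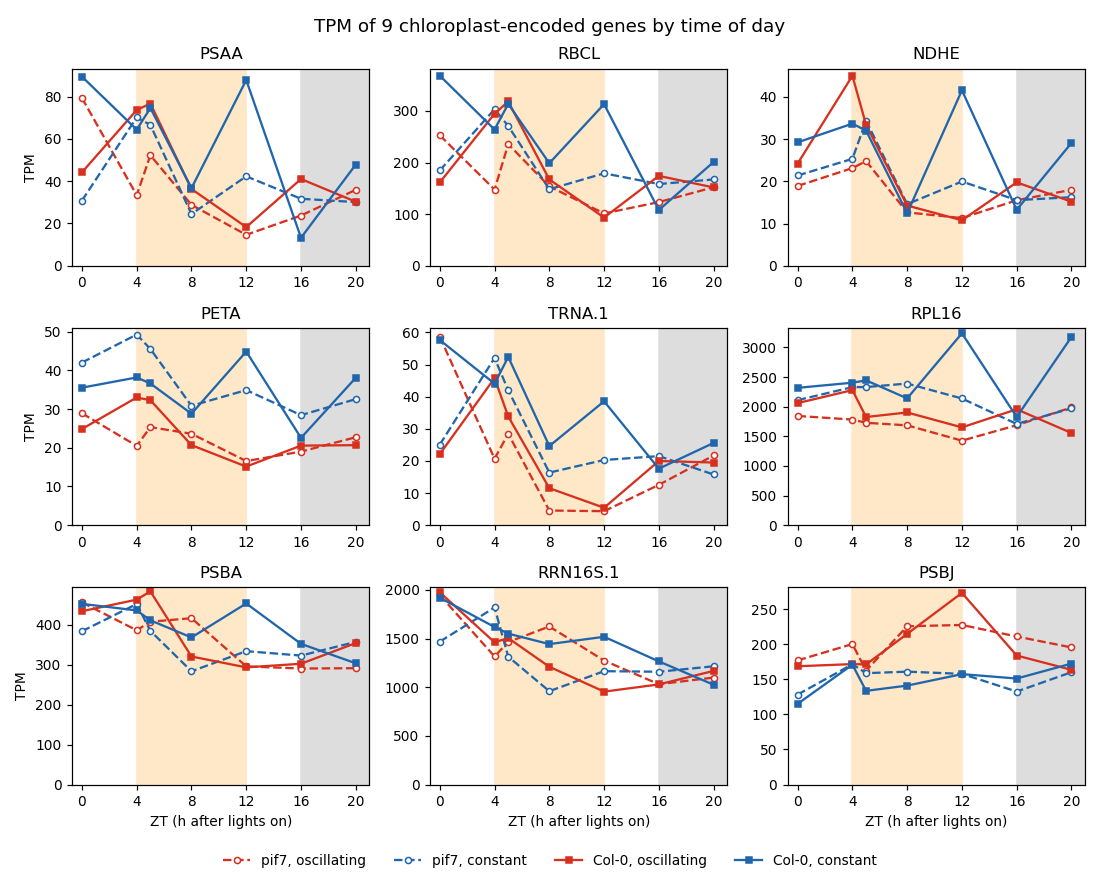
TPM (y axis, from 0) against ZT in hours (x axis) for 9 chloroplast genes, with 1 point per library and the symbols of the plot of summed levels (dashed pif7, solid Col-0, red oscillating, blue constant). PSAA, RBCL, NDHE, PETA, TRNA.1 and RPL16 had both oscillating points below both constant points at ZT12, PSBJ had them above, and RRN16S.1 had them mixed.

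Averaged over ZT5, ZT8 and ZT12, 15 genes fell and 3 rose, 13.5% of the 133, against 19.4% of all genes tested (10.4% higher, 8.97% lower), so the share is below the background. Their median was -0.33, and 109 lay below 0. CEMA, an envelope protein gene beside PETA, fell by 0.76 ± 0.17 and PETA by 0.72 ± 0.15, both lower in 6 of 6 pairs (adjusted p = 0.00726 and 0.00505). RPOC2, PSAC and RPL16 fell by 0.67, 0.61 and 0.50. Of the tRNA rows 10 fell, led on coverage by TRNA.2 (-1.43), TRNA.1 (-1.40), TRNI.3 (-1.16) and TRNI.2 (-1.15). TRNQ (-2.96 on TPM, -0.42 on coverage, adjusted p = 0.424) and TRNN.2 (-1.31 on TPM, -0.53 on coverage, adjusted p = 0.101) did not pass on coverage, and TRNR.1 fell by 2.04 on TPM and 0.63 on coverage. RRN5S.1 and RRN5S.2 rose by 0.85 and 0.86, and PSBJ was the third. The average leans on ZT12: without that time 1 gene passed, without ZT8 3 passed, and without the Col-0 constant library of ZT12 8 of the 18 passed, CEMA, PETA, PSBJ, TRNA.1, TRNA.2 and TRNI.3 among them.

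At each single time other than ZT12, 2 genes at most passed. At ZT4, ZT8, ZT16 and ZT20 limma called 0 of 133, against 4.77%, 10.5%, 3.05% and 0.875% of all genes called. In order, 8, 12, 15 and 20 of 133 had an unadjusted p under 0.05, against 3812, 5429, 5915 and 2300 of 21031 genes. The median difference was -0.16, -0.15, 0.03 and -0.33 at those times. At ZT4, where the warm window starts, it was -0.42 in pif7, with 106 genes below 0, and 0.05 in Col-0. The pif7 median at ZT4 was thus about as low as at ZT12 (-0.43). At ZT20 it was 0.08 in pif7 and -0.64 in Col-0, where the constant library is the one with the second highest chloroplast sum. At ZT8 TRNA.1 and TRNL.1 came nearest to the threshold (-1.42 and -0.61, adjusted p = 0.0671 and 0.0641). When only the 4 libraries of a time were fitted, none of the 133 passed at ZT0, against 25 of all 21031 genes. In those fits 16, 19, 26 and 47 of the 133 passed at ZT4, ZT5, ZT8 and ZT12, against 1618, 3177, 4368 and 1789 of all genes, and 13 and 11 at ZT16 and ZT20, against 1971 and 344.

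PSBN, a gene on the opposite strand to PSBT and PSBH whose product helps assemble photosystem II, rose at ZT0 and at ZT5. At ZT0 it had 20.0 TPM in pif7 and 27.7 TPM in Col-0 in the oscillating regime, against 7.02 TPM in pif7 and 8.41 TPM in Col-0 in the constant regime (1.44 ± 0.19, adjusted p = 0.00482). ZT0 lies 12 h after the warm window ended. At ZT5 the difference was 0.76 ± 0.19 (adjusted p = 0.034). TRNS.1 rose at ZT0 by 1.14 ± 0.22 (adjusted p = 0.0389). With the typical chloroplast gene held level the differences were 1.45 and 0.85 for PSBN at ZT0 and ZT5 and 1.15 for TRNS.1, and none passed (adjusted p = 0.177, 0.284 and 0.679). In the fit of the ZT0 libraries alone neither passed (PSBN 0.107, TRNS.1 0.258 as adjusted p), and without the Col-0 constant library of ZT20 PSBN passed at ZT0 and TRNS.1 did not. These 2 genes at ZT0 are 1.5% of the 133, against 0.799% of all genes tested (0.319% higher), and PSBN at ZT5 is 0.752%, against 7.59% (4.03% higher). Whether strand was used in counting is not given, so reads of PSBN and of its partner strand cannot be told apart.

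Averaged over the times outside the warm window (ZT0, ZT4, ZT16 and ZT20), 5 of 133 genes fell and none rose (3.76%, against 5.31% of all genes tested and 2.7% lower). PETA fell by 0.67 ± 0.13 (adjusted p = 0.00872) and CEMA by 0.85 ± 0.14 (adjusted p = 0.00433), both lower in 8 of 8 pairs. PETA thus lay lower in all 14 pairs: its median was 22.7 TPM in pif7 and 20.7 TPM in Col-0 under oscillation, against 34.9 TPM in pif7 and 36.6 TPM in Col-0 at constant temperature. RPL32 (-0.545) and ATPE (-0.44) fell in 7 of 8 pairs each, with adjusted p of 0.043 and 0.0488, and the low TRNM row fell by 1.12 on TPM and 0.695 on coverage. Without the Col-0 constant library of ZT20, CEMA and PETA passed.

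**Figure D4:**
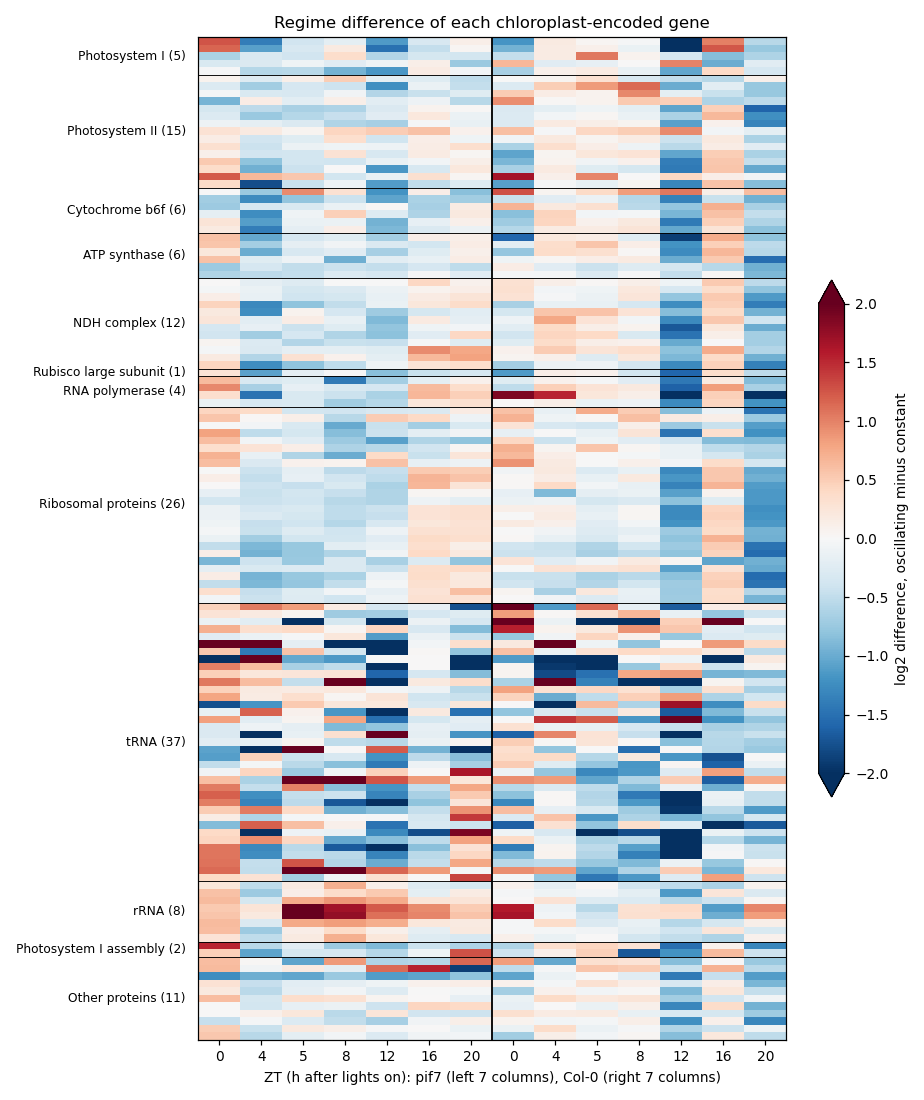
Log2 difference, oscillating minus constant (colour, capped at -2 and 2), of each of the 133 chloroplast genes (rows, grouped by function and ordered along the genome) at the 7 times (columns), with pif7 on the left and Col-0 on the right. Blue covers most of the ZT12 column in both genotypes, the ZT4 column in pif7 (median -0.42) and the ZT20 column in Col-0 (median -0.64).

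Time of day was tested within each regime over both genotypes, which asks how far chloroplast transcripts follow the daily cycle. In the oscillating regime 72 of 133 genes varied (54.1%, against 65.7% of all genes tested), with a median amplitude of 1.17 between the highest and lowest time. In the constant regime 24 varied (18%, against 30.6%), with a median amplitude of 1.29. Both shares are below the background. Of these genes 18 were called in both regimes, which is 25% of the 72 and 75% of the 24. With the typical chloroplast gene held level, 36 and 3 genes varied, and with no filter on low genes 24 and 1. Without the Col-0 constant library of ZT20, 13 of the 24 passed, and without that of ZT12 19 did.

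The most common time of the lowest level differed between regimes. Under oscillation 67 of 133 genes (50.4%) were lowest at ZT12, against 15.7% of all genes tested, and at constant temperature 67 (50.4%) were lowest at ZT16, against 22.2%. The highest level fell at ZT4 for 50 genes under oscillation (37.6%, against 16.7%) and for 75 at constant temperature (56.4%, against 10.9%). Among the 72 genes that varied under oscillation, 48 were lowest at ZT12, and 39 had the same lowest time in pif7 and Col-0. Among the 24 that varied at constant temperature, 14 were lowest at ZT16, and 9 had the same lowest time in pif7 and Col-0. Neighbouring genes share transcripts and all share libraries, so these counts are descriptions.

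The regime difference itself varied between times for 7 of 133 genes (5.26%, against 29.7% of all genes tested), among them NDHD and NDHE.

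RBCL had 253, 148, 236, 154, 101, 123 and 152 TPM from ZT0 to ZT20 in pif7 under oscillation, and 161, 294, 318, 167, 93.3, 174 and 152 TPM in Col-0. At constant temperature it had 185, 303, 271, 148, 179, 158 and 167 TPM in pif7 and 368, 264, 314, 199, 313, 108 and 201 TPM in Col-0. Both oscillating courses were lowest at ZT12, while the constant courses had their lowest levels at ZT8 in pif7 and ZT16 in Col-0. RBCL varied in both regimes (amplitude 1.51 and 1.08, adjusted p = 0.00581 and 0.0465 for oscillating and constant). PSAA and PSAB varied under oscillation by 1.91 and 1.87, highest at ZT5 and lowest at ZT12. TRNA.1 varied by 2.62, with 58.7 TPM in pif7 and 22.1 TPM in Col-0 at ZT0 and 4.34 TPM in pif7 and 5.41 TPM in Col-0 at ZT12. All 4 polymerase genes varied under oscillation and were lowest at ZT12. RRN16S.1 varied by 0.99 and was highest at ZT0, with 1947 TPM in pif7 and 1975 TPM in Col-0. PSBA varied by 0.71 under oscillation (adjusted p = 0.00267), whereas PSBD, PSBC, ATPB, CLPP1, ACCD and NDHB.1 did not pass there.

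The pif7 mutant was compared with Col-0 to ask which transcripts depend on PIF7. Of 133 genes 4 rose and none fell over the 14 pairs (3.01%, against 0.361% of all genes tested, 0.266% higher and 0.0951% lower). All 4 are the small rRNAs of the large ribosomal subunit, in both copies of the operon, so the share counts each of these genes once per copy. Their sequences, on which these values rest, are printed here from RefSeq TAIR10.1 in lower case throughout, since no part is singled out.
RRN4.5S.1 (Pt:107599-107701, plus strand): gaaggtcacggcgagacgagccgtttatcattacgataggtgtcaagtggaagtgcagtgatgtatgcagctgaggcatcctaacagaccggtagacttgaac
RRN5S.2 (Pt:130580-130700, minus strand): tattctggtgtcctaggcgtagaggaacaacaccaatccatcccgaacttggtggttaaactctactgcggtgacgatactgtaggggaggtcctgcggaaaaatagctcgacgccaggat

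RRN5S.2 had 193, 221, 185, 274, 215, 93.3 and 173 TPM from ZT0 to ZT20 in pif7 under oscillation, against 178, 60.2, 27.1, 75.9, 63.8, 41.8 and 59.3 TPM in Col-0. At constant temperature it had 116, 187, 46.3, 77.2, 98.6, 44.2 and 101 TPM in pif7, against 58.0, 61.8, 37.5, 55.7, 56.0, 66.0 and 30.1 TPM in Col-0. pif7 was higher in 13 of 14 pairs, with ZT16 at constant temperature the exception. The log2 difference was 1.15 ± 0.21 (adjusted p = 0.017), and it was 1.15 ± 0.22 for RRN5S.1 (adjusted p = 0.0268). RRN4.5S.1 and RRN4.5S.2 rose by 0.59 ± 0.12 and 0.57 ± 0.12 (adjusted p = 0.0489 and 0.0414), also in 13 of 14 pairs. RRN16S.1 (-0.06 ± 0.07) and RRN23S.1 (-0.10 ± 0.11) did not pass.

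Within the oscillating regime RRN5S.2 was higher by 1.54 ± 0.27 and RRN4.5S.1 by 0.90 ± 0.15, each in 7 of 7 pairs (adjusted p = 0.0117 and 0.00726), where 0.456% of all genes passed (0.176% higher). Within the constant regime the differences were 0.77 ± 0.27 and 0.28 ± 0.15, each in 6 of 7 pairs, and did not pass (adjusted p = 0.872 and 0.993), where 0.0951% of all genes did. A difference of the genotype effect between regimes was 0.775 ± 0.38 for RRN5S.2 and 0.615 ± 0.21 for RRN4.5S.1 and did not pass (adjusted p = 1 for both, 0.00475% of all genes called). Over both regimes, 1 of the 4 rows (RRN5S.2) passed without the Col-0 constant library of ZT20 and 3 without that of ZT12. None passed with no filter on low genes or when ZT4, ZT8, ZT12 or ZT20 was left out, 2 passed without ZT0, without ZT5 or with no variance trend, and all 4 kept their sign in each of these settings. Median depth was 2.47 gigabases in the pif7 oscillating libraries and 1.72 in the Col-0 oscillating ones. The part of depth in the result was not tested. The 29 single-exon tRNA rows, which are also short, had a median genotype difference of 0.15 (-0.60 to 1.67), and none of them passed. The 8 tRNA rows with an intron had a median of -0.17. The part of row length in the result was not tested.

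**Figure D5:**
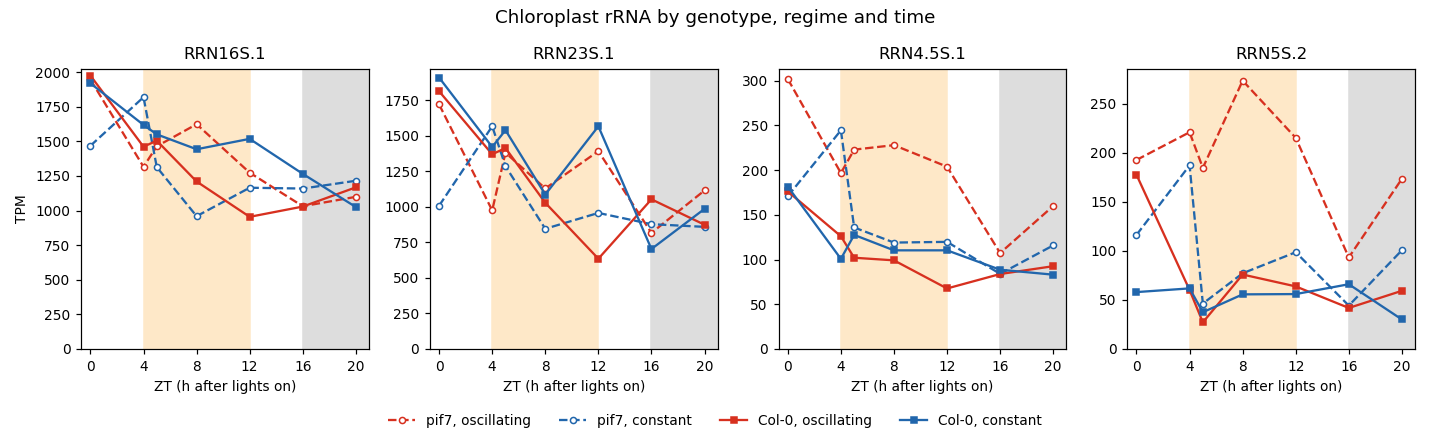
TPM (y axis, from 0) of 4 chloroplast rRNA genes against ZT in hours (x axis), 1 point per library; dashed lines are pif7, solid lines Col-0, red oscillating, blue constant. For RRN5S.2 the pif7 oscillating points lie between 93.3 and 274 TPM, above the Col-0 oscillating point of the same time at all 7 times, while RRN16S.1 and RRN23S.1 cross.

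The other 129 chloroplast genes did not pass between genotypes. Over all 133, 98 lay below 0 (median -0.12, against -0.0002 over all genes tested). Within the constant regime 99 lay below 0 (median -0.15). Within the oscillating regime, without the high Col-0 constant libraries of ZT12 and ZT20, 85 did (median -0.09). Over both regimes 43 of the 133 had an unadjusted p under 0.05, against 2099 of all 21031 genes. PSAA (-0.33 ± 0.16), RBCL (-0.24 ± 0.11), PSBA (-0.10 ± 0.06) and ATPB (-0.17 ± 0.06) were examples, with adjusted p of 0.5, 0.475, 0.609 and 0.32. The regime effect in the warm window did not differ between pif7 and Col-0 past the threshold for any of the 133 genes in limma. The calls were 0 here and 0% of all genes tested. An unadjusted p under 0.05 was reached by 12 of the 133, against 279 of all 21031 genes.

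Nuclear genes that act on these transcripts were taken from lists. Of 6 sigma factors, SIG6 fell in the warm window (-0.35 ± 0.10, adjusted p = 0.0271). SIG5, the sigma factor known for light and stress responses at the psbD promoter, had 28.6 TPM in pif7 and 31.3 TPM in Col-0 at ZT8 under oscillation, against 10.6 TPM in pif7 and 13.4 TPM in Col-0 at constant temperature, and rose by 1.19 ± 0.16 (adjusted p = 0.00111). It fell at ZT20 by 1.73 and at ZT0 by 1.04 (adjusted p = 0.000249 and 0.01), and its difference at ZT12 was 0.04. PSBD had a difference of -0.41 ± 0.31 at ZT8 (adjusted p = 0.461). SIG1 fell at ZT20 by 0.88 and outside the window by 0.47 (adjusted p = 0.023 and 0.0433). None of the 13 polymerase-associated proteins and neither of the 2 phage-type polymerases passed in the warm window or at ZT12. CP29A, a chloroplast RNA-binding protein of the RNA stability list, fell in the warm window by 0.44 ± 0.13 (adjusted p = 0.0332) and at ZT8 by 0.90. Under oscillation all 6 sigma factors, both phage-type polymerases and 9 of 13 polymerase-associated proteins varied by time of day, against 65.7% of all genes tested. None of these lists passed in any member between genotypes.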

How the data were processed

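RNA of whole seedlings was sequenced in 28 libraries, 1 per condition. Per the labels' protocols, libraries came from total RNA with a directional kit and were read in pairs on a NextSeq 500. HISAT2, StringTie and the TAIR10 build are named in the submitters' processing notes, while versions, strand setting and options are not given in the sources used here. The authors deposited, per the file headers, a coverage (signal per base), an FPKM and a TPM value per gene. The deposited TPM are not a standard TPM: assembled loci sum to 1000000 and the 33602 reference genes, listed again, to between 1010427 and 1034801. Depth came from coverage and FPKM, and no read counts were used, so no counting interval is given.

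TPM values were divided by median-ratio factors, 1 was added as a pseudocount, and limma 3.58.1 (R 4.3.3), with its prior variance following mean expression, was run on the log2 values of the 21031 genes that reached 1 TPM in 2 or more libraries. All 133 chloroplast genes were among these. Fold changes are on this log2(TPM + 1) scale, which understates the change of low genes. The threshold was 0.05 after Benjamini-Hochberg adjustment. Errors are standard errors from the fit. Regime differences were taken within pairs of the same genotype and time, and genotype differences within pairs of the same regime and time. Time of day was an F test within each regime, allowing for genotype. The fits were tested on simulated data. At ZT12 they recovered 0%, 69.5% and 98% of genes changed by 0.5, 1 and 2 (log2). For time of day they recovered 0% and 90% of genes changed by 0.5 and 1 in each regime. A change of 0.5 was recovered for 68.5% of genes in the warm window and 93.5% between genotypes. A gene that did not pass is therefore not shown to be unchanged. Members, functional groups, nuclear lists and tests were chosen with earlier results of these data known. The text names fixed genes (PSBA, RBCL and others) and, for each comparison, up to 5 highest and 5 lowest of those past the threshold whose mean TPM reached 5, plus up to 2 per function. Others, such as the members of a transcript listed in full, were named after their values were seen. Values of 1 gene, which stays in the counts, are not reported here. Function, transcript and promoter groups follow textbook knowledge. Tables were made with Python 3.11.15, pandas 2.3.3 and Biopython.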

Additional observations from a re-analysis of the deposited data

Results flagged for a closer look

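The regime difference of 7 chloroplast genes varied between the 7 times of day by a test of that variation itself (an F test in limma, with adjusted p over all genes), which is 5.26% of the 133, against 29.7% of all genes tested. NDHD (adjusted p = 0.00727) had log2 differences between 0.36 at ZT16 and -1.08 at ZT12. NDHE (adjusted p = 0.0462) had 0.11 at ZT4 and -1.25 at ZT12. TRNA.2 (adjusted p = 0.0468) had -0.07 at ZT20 and -2.38 at ZT12. TRNS.3 (adjusted p = 0.0475) had 0.45 at ZT4 and -2.49 at ZT12, and it did not pass on coverage (adjusted p = 0.466). These 4 had their lowest difference at ZT12. TRNS.2 (adjusted p = 0.0143) had 0.63 at ZT0 and -0.61 at ZT20. TRNFM (adjusted p = 0.0355), a row of at most 5.57 TPM that was listed at 0 in 4 libraries, had 0.95 at ZT12 and -1.68 at ZT4. Without the Col-0 constant library of ZT12, 3 of 133 genes passed.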

How the results depend on the processing

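Libraries could not be paired by replicate number, because each condition has 1 library. The pairs in the text and in the fits are libraries that share a genotype and time, or a regime and time. Leaving out each time in turn gave 1 to 22 calls among the 133 for the warm window, 1 to 6 outside it, 0 to 0 for the window effect between genotypes, 0 to 4 between genotypes, 52 to 80 for time of day under oscillation, 11 to 31 at constant temperature and 1 to 17 for the day profile (18, 5, 0, 4, 72, 24 and 7 with all times). Most counts that moved by over 1.5 times did so with the filter, the scaling or a library. With no filter on low genes they were 10 for the warm window, 2 outside, 0 between genotypes, 24 and 1 for time of day (oscillating, constant) and 1 for the day profile. With chloroplast gene scaling they were 3 outside, 36 and 3 for time of day, 0 for the day profile, 0 at ZT0, 0 at ZT5 and 16 at ZT12. With no variance trend they were 2 between genotypes, 11 for time of day at constant temperature and 3 for the day profile. With a pseudocount of 5 the day profile had 4. Unscaled TPM gave 11 and nuclear total scaling 12 for the day profile, and each gave 1 at ZT4, 2 at ZT5, 1 at ZT8 and 1 at ZT16. Fits of only the 4 libraries of a time gave 0 at ZT0, 16 at ZT4, 19 at ZT5, 26 at ZT8, 13 at ZT16 and 11 at ZT20. The next 3 settings were chosen after seeing the data. Without the Col-0 constant library of ZT12 the counts were 8 for the warm window, 3 for the day profile, 1 at ZT4, 2 at ZT5, 5 at ZT12, 1 at ZT16 and 1 at ZT20. Without that of ZT20 they were 2 outside, 1 between genotypes, 1 at ZT0, 3 at ZT4 and 3 at ZT5. On the coverage column ZT20 had 1. The cause was not tested where the setting's own construction (fewer libraries, another reference level) does not give it. Of the 133 genes, the 1 that turned its sign after passing was TRNL.1 at ZT12, with 0.07 under chloroplast gene scaling, where it did not pass. With 1 library per condition, error between libraries cannot be told apart from the differences.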

Other observations

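Each table also lists loci assembled from the reads without regard to reference names, 45 to 73 of them on the chloroplast genome per library. Loci that overlapped a chloroplast gene on the opposite strand alone numbered 10 to 33 per library and held 0.671% to 18.1% of the summed TPM of the assembled chloroplast loci, with a median of 3.69%. Loci that overlapped no chloroplast gene numbered 0 to 5 and held at most 0.98%. The highest share of opposite-strand loci was 18.1%, in the pif7 oscillating library of ZT20 and in the Col-0 oscillating library of ZT8. The mitochondrial genes summed to 419 to 744 TPM over the 28 libraries.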
